A study of Mus musculus with 8 samples.

Results

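Goblet cells sit among the absorptive cells of the colon and release mucus onto its surface, and the 10 genes described here encode proteins of that mucus, the enzymes and peptides released with it, and factors that make its secretion possible. They were taken as a list of names (Muc2, Fcgbp, Clca1, Zg16, Agr2, Tff3, Retnlb, Klk1, Spdef and Creb3l1) and found by gene symbol among the 19505 named genes on the arrays, with 1 probe set each. RNA came from whole colon of 8 wild-type BALB/c mice with graft-versus-host disease, all of them lethally irradiated and given bone marrow cells and T cells from C57BL/6 donors on day 0. Of these, 4 mice received hBD-2 by mouth at 1.2 mg/kg and 4 received PBS, from day 0 to day 7, and the colon was removed on day 7. The peptide, human beta-defensin 2, is an antimicrobial peptide of epithelial surfaces. Both groups had the disease, and no healthy mice were analysed here, so every difference is between hBD-2 and PBS within diseased colon.

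Colonic mucus is built on MUC2, a very large glycoprotein that goblet cells fold and join into polymers in the endoplasmic reticulum and Golgi and store dehydrated in granules. After release it swells into a stratified gel whose inner layer keeps most bacteria away from the epithelium, and mice without Muc2 develop spontaneous colitis. Other goblet cell products cross-link, trim or decorate that gel. Loss of goblet cells and thinning of mucus are known features of intestinal graft-versus-host disease in mice. In whole tissue, fewer goblet cells and less RNA per goblet cell cannot be told apart.

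None of the 10 genes passed an adjusted p of 0.05 in limma, against 0.0410% of all genes, and 3 of the 10 had an unadjusted p under 0.05. Those 3 were Klk1, Creb3l1 and Tff3, each with the higher mean in the hBD-2 mice. Over all genes, 11.8% had an unadjusted p under 0.05, 5.85% with the higher mean in hBD-2 and 5.98% with the lower. The means of 8 of the 10 were higher in hBD-2, against 53.5% of all genes, and the median difference of the 10 was 0.19 log2 units (hBD-2 minus PBS), against 0.012 over all genes. In no member did the groups separate completely, against 2.80% of genes that did so with hBD-2 higher and 3.60% with hBD-2 lower.

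The hBD-2 mice varied more among themselves than the PBS mice did in every member but Agr2, by SD. In the array hBD-2 1, 8 of the 10 genes lay above all 4 PBS values, where 23.7% of all genes did so. In hBD-2 2 and hBD-2 3 the count was 6 each, where 28.1% and 21.2% of all genes did so. In hBD-2 4 it was 0 of 10, where 25.5% of all genes did so, and 8 of the 10 lay within the PBS range. Below all PBS values lay Spdef in hBD-2 1 and hBD-2 3, Clca1 in hBD-2 2, and Zg16 and Agr2 in hBD-2 4. Of all genes, 23.8%, 19.8%, 23.7% and 24.0% lay below all PBS values in hBD-2 1, 2, 3 and 4. At least 3 hBD-2 arrays exceeded every PBS array in 3 members, again Klk1, Creb3l1 and Tff3, against 11.5% of all genes. Without hBD-2 4 those 3 necessarily separated from PBS, where 5.68% of all genes did so with hBD-2 higher. In the same setting 5 members had an unadjusted p under 0.05 in limma and the higher mean in hBD-2, against 6.21% of all genes. None passed the adjusted threshold. Since no member exceeded PBS in hBD-2 4, leaving it out favours the members, and these counts are no support for a difference. With any other single array left out the count was 2 or 3, against 3.93% to 7.43% of all genes.

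**Figure D1:**
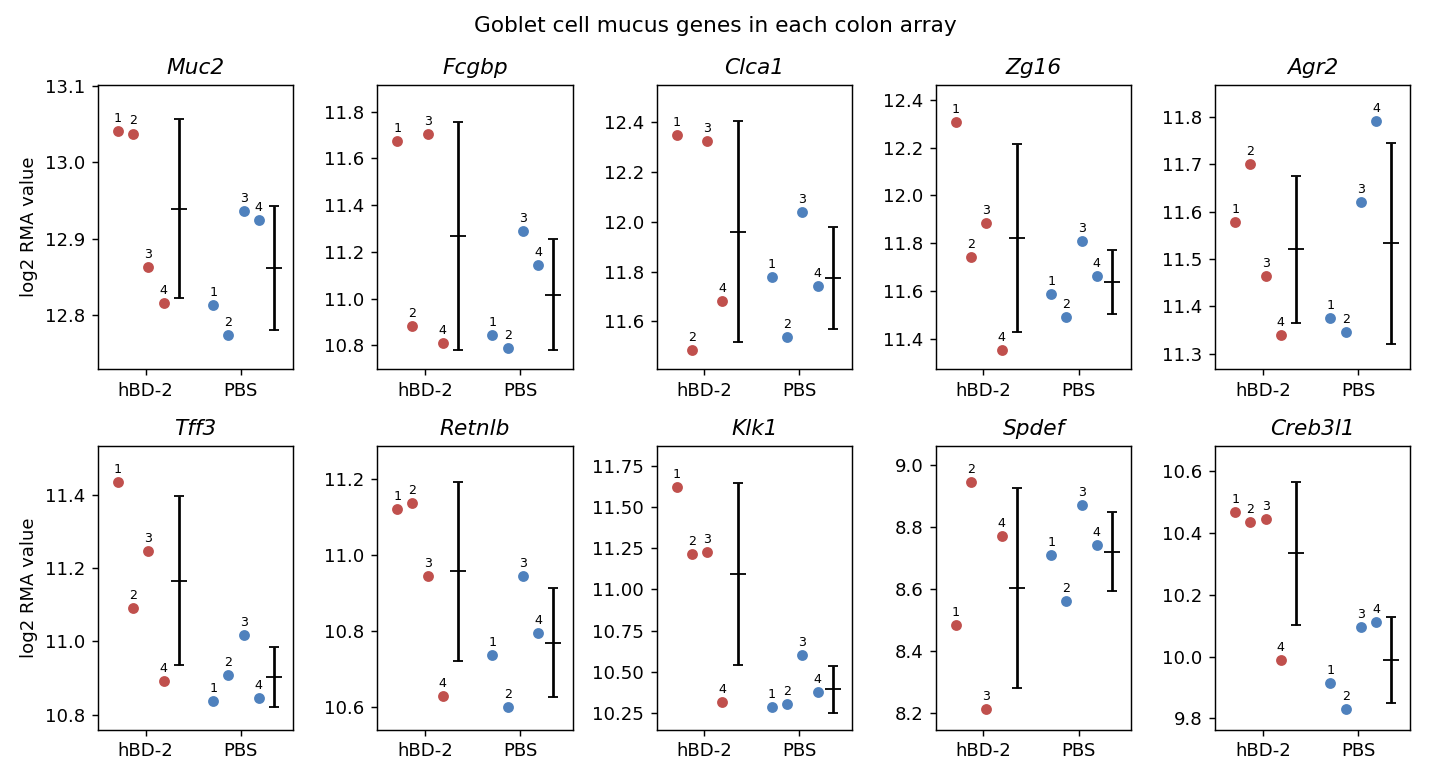
Log2 RMA values (vertical axes, a separate scale for each gene) of the 10 genes in the 4 hBD-2 arrays (red, left) and the 4 PBS arrays (blue, right), with replicate numbers above the points. The black mark and bar beside each group are its mean and SD (n = 4). In Klk1, hBD-2 1, 2 and 3 lie between 11.22 and 11.62, while hBD-2 4, at 10.32, lies among the PBS arrays.

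A pair of hBD-2 arrays also stood apart from the rest of the series. hBD-2 1 and hBD-2 3 lay at -25.2 and -25.4 on the first principal component of all genes, which held 34.6% of the variance, and the other 6 arrays lay between 2.45 and 14.9. hBD-2 1 and hBD-2 3 are called the pair here. In the pair, levels of Hoxb13, a homeobox gene of the posterior body axis, were 9.06 and 9.32, against 4.73 to 7.22 in the other 6. The 11 measured colon position genes averaged 6.98 to 8.02 log2 units in hBD-2 arrays and 6.87 to 7.22 in PBS arrays. Of these, 9 had the higher mean in hBD-2, against 53.5% of all genes. Among them 2 had an unadjusted p under 0.05, against 5.85% of all genes, and none passed the threshold. The median difference of 0.65 was -0.073 without the pair. Hoxd13 was also highest in the pair, at 6.20 and 6.03, against 4.09 to 4.49 in the other 6. Fabp2, of the same list, was lowest in the pair, at 6.75 and 7.00, against 8.07 to 9.72 in the other 6. Genes of the list need not share 1 direction along the colon. Whether high Hox genes and low Fabp2 reflect the same position was not tested. The list mean and median are thus not a score of position. Markers of immune and stromal cells had the lower mean in hBD-2 mice in 14 of 16 measured genes. Among them 10 had an unadjusted p under 0.05, against 5.98% of all genes, and 7 separated completely, against 3.60%. The 1 that passed was the macrophage gene Aif1 (-0.96, SE 0.13, adjusted p = 0.0467 by limma), where 0.0410% of all genes passed with hBD-2 lower. Array means of these markers were 7.98 to 8.15 in hBD-2 and 8.38 to 8.59 in PBS. The 15 pan-epithelial markers, among them Epcam and Cdh1, were nearly level, with array means of 11.23 to 11.33 in hBD-2 and 11.25 to 11.34 in PBS. RMA values have no zero, so no marker can be called absent. The part of colon position or of immune and stromal content in the differences below was not tested, and values without the pair are given with most genes. Leaving out the pair did not level Hoxb13 between the groups, since its difference was then -0.79. Taken relative to the pan-epithelial mean of each array, the median difference of the 10 genes was 0.18.

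The promoters of Klk1, Fcgbp and Muc2 are shown because Klk1 had the largest difference of the 10, Fcgbp was high in the pair, and Muc2 is the mucin on which the gel is built. They do not cover every pattern among the 10. Promoter windows in the RefSeq-derived table (GRCm38.p6) matched 5 of the 10 genes, and each sequence is the 250 bases before the gene's start, on the plus strand. Capitals mark, on either strand, CAGCTG (an E-box of the kind bound by basic helix-loop-helix factors such as Atoh1), GATAA (the core bound by GATA factors), TTTAT (a core bound by Cdx factors), ACGTG (found in elements bound by factors of the unfolded protein response) and GGAA (the core bound by ETS factors, the family of Spdef).
Klk1, chr7:44225110-44225359: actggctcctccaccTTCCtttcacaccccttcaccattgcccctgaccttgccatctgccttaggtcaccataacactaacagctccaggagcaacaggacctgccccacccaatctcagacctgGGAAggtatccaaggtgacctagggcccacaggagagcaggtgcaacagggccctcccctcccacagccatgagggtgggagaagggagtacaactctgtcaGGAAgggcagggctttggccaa
Fcgbp, chr7:28070986-28071235: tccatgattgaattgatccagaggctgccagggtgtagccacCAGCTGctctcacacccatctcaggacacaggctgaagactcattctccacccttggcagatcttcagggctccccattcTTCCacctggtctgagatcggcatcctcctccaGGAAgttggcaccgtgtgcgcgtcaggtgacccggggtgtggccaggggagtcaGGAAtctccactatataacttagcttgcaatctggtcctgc
Muc2, chr7:141690090-141690339: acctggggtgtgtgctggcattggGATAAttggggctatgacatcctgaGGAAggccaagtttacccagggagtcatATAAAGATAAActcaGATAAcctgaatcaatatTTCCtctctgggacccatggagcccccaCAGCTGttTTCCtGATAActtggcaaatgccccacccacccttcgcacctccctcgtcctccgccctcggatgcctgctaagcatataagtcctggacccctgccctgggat
The Klk1 window held 3 matches to GGAA and none to the other motifs. Fcgbp held 1 CAGCTG and 3 GGAA. Muc2 held 1 CAGCTG, 4 GATAA, 2 TTTAT and 3 GGAA, with a TTTAT match overlapping a GATAA match, and none of the 3 windows held ACGTG. Of 32851 promoter windows of the same length, 13% held CAGCTG, 22.6% GATAA, 37.3% TTTAT, 16.6% ACGTG and 93.5% GGAA, so these are descriptions of the letters and not of binding.

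Muc2, the gel-forming mucin, had close means of 12.94 ± 0.12 in hBD-2 and 12.86 ± 0.081 in PBS (SD, n = 4 each). It stood at 13.04, 13.04, 12.86 and 12.82 log2 units in hBD-2 1 to 4, against 12.81, 12.77, 12.94 and 12.93 in PBS 1 to 4. hBD-2 1 and hBD-2 2 were the highest arrays, and hBD-2 3 and hBD-2 4 lay within the PBS range. The difference was 0.077 (SE 0.082, 95% interval -0.10 to 0.26, adjusted p = 0.746 by limma), and without the pair it was 0.064. It ranged from 0.043 without hBD-2 1 to 0.12 without hBD-2 4. The Muc2 probe set ranked from 1 to 12 by signal among 22203 on the arrays, at the top of the measured range, and whether its signal was compressed there was not tested.

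Fcgbp and Clca1 split the hBD-2 mice in the same way as Hoxb13 did. Fcgbp, the IgG Fc binding protein that is attached to MUC2 in the mucus gel, was at 11.68, 10.88, 11.71 and 10.81 in hBD-2 1 to 4, against 10.85, 10.79, 11.29 and 11.14 in PBS 1 to 4. Clca1, a secreted metalloprotease that cleaves MUC2 and lets the mucus expand, was at 12.35, 11.48, 12.32 and 11.68 in hBD-2, against 11.78, 11.54, 12.04 and 11.74 in PBS. For both genes hBD-2 1 and hBD-2 3 were the highest of the 8 arrays, PBS 3 came next, and hBD-2 2 and hBD-2 4 lay within or, for Clca1 in hBD-2 2, below the PBS range. The differences were 0.25 (SE 0.22, adjusted p = 0.675 by limma) for Fcgbp and 0.19 (SE 0.20, adjusted p = 0.743 by limma) for Clca1. With single arrays left out, Fcgbp ranged from 0.11 without hBD-2 3 to 0.41 without hBD-2 4. Clca1 ranged from 0.057 without hBD-2 1 to 0.35 without hBD-2 2. Without the pair both turned, to -0.17 and -0.19, as Hoxb13 did, to -0.79. Of the relatives of Clca1, Clca3a2 was at -0.43 (SE 0.19) and Clca3a1 at -0.18 (SE 0.13). Without the pair they were at -0.75 and -0.39. Clca3b and Clca4a were at -0.067 and -0.062, and Clca4b and Clca2 at 0.10 and 0.13. None of these relatives passed the threshold.

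Zg16 encodes a small lectin-like mucus protein that binds the cell wall of Gram-positive bacteria. Its values were 12.31, 11.74, 11.88 and 11.35 in hBD-2 1 to 4 and 11.59, 11.49, 11.81 and 11.66 in PBS 1 to 4. The hBD-2 group held both the highest and the lowest array, with an SD of 0.39 in hBD-2 and 0.13 in PBS. The difference of 0.18 (SE 0.17, adjusted p = 0.701 by limma) was 0.022 without hBD-2 1, 0.34 without hBD-2 4 (unadjusted p = 0.0353, adjusted p = 0.365 by limma) and -0.089 without the pair.

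Agr2, a disulfide isomerase of the endoplasmic reticulum that goblet cells need to make MUC2, had the smallest difference of the 10. Its values were 11.58, 11.70, 11.46 and 11.34 in hBD-2 1 to 4, against 11.37, 11.35, 11.62 and 11.79 in PBS 1 to 4. The groups overlapped almost entirely, and the difference was -0.013 (SE 0.12, 95% interval -0.27 to 0.25, adjusted p = 0.974 by limma). Its sign depended on which array was left out, with values from -0.075 without PBS 2 to 0.073 without PBS 4.

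Klk1, tissue kallikrein, a serine protease of goblet cell granules that releases kinins from kininogens, had the largest difference of the 10. It stood at 11.62, 11.22, 11.23 and 10.32 in hBD-2 1 to 4, against 10.29, 10.31, 10.60 and 10.38 in PBS 1 to 4. Each of hBD-2 1, 2 and 3 was higher than every PBS array, and hBD-2 4 was among them. The means were 11.10 ± 0.55 in hBD-2 and 10.39 ± 0.14 in PBS (SD, n = 4 each), a difference of 0.70 or 1.63-fold (SE 0.23, 95% interval 0.20 to 1.21). It did not pass over all genes (unadjusted p = 0.0114, adjusted p = 0.271 by limma), and the two-sided exact permutation test gave p = 0.0857, where 4 against 4 cannot go below 0.0286. Leaving out hBD-2 4 raised the difference to 0.96 (adjusted p = 0.0505 by limma), and leaving out the pair lowered it to 0.37 (adjusted p = 0.521 by limma).

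Klk1 belongs to a cluster of closely related mouse kallikrein genes whose transcripts may share probe signal. Of the Klk1b genes, Klk1b22 averaged 5.65 ± 0.55 in hBD-2 and 5.09 ± 0.29 in PBS (SD, n = 4 each), with hBD-2 1, 2 and 3 above all PBS arrays and hBD-2 4 among them. Klk1b5 stood at 7.85, 7.18, 7.59 and 6.52 in hBD-2, against 6.83, 6.51, 6.83 and 7.18 in PBS. Klk1b21 was above every PBS array in all 4 hBD-2 mice, as 2.80% of all genes were. Its difference was 0.36 (SE 0.11, adjusted p = 0.260 by limma). Its signal was low, at 4.75 to 5.06 in hBD-2 and 4.19 to 4.66 in PBS, below the array medians of 6.77 to 6.82. Klk1b1 was nearly level, at 0.029 (SE 0.11). How much of the Klk1 signal comes from its relatives was not tested.

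Tff3, a trefoil peptide released with mucus that promotes migration of epithelial cells over wounds, ordered the hBD-2 mice as Klk1 did, over a narrower range. Its values were 11.44, 11.09, 11.25 and 10.89 in hBD-2 1 to 4 and 10.84, 10.91, 11.02 and 10.85 in PBS 1 to 4. Here too hBD-2 1, 2 and 3 exceeded all PBS arrays, and hBD-2 4 lay among them. The difference was 0.26 (SE 0.11, unadjusted p = 0.0410, adjusted p = 0.400 by limma), with an exact permutation p of 0.0857, and it was 0.087 without the pair. Its relatives Tff1 and Tff2, trefoil peptides chiefly of the stomach, were at 0.18 (SE 0.17) and 0.045 (SE 0.084).

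Retnlb, or RELM-beta, a goblet cell protein with bactericidal activity that type 2 cytokines and microbes induce, was at 11.12, 11.14, 10.95 and 10.63 in hBD-2 1 to 4, against 10.74, 10.60, 10.95 and 10.80 in PBS 1 to 4. hBD-2 1 and hBD-2 2 were the highest arrays, and hBD-2 3 was level with PBS 3. The difference of 0.19 (SE 0.12, adjusted p = 0.572 by limma) was 0.30 without hBD-2 4. Its relatives Retnla and Retnlg, which macrophages and neutrophils express, were at -0.30 and -0.57, neither past the threshold. Without the pair they were at -0.72 and -0.29, and Retnla stood at 6.06 in hBD-2 3, against 4.44 to 4.54 in the other hBD-2 mice and 4.81 to 5.38 in PBS mice.

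**Figure D2:**
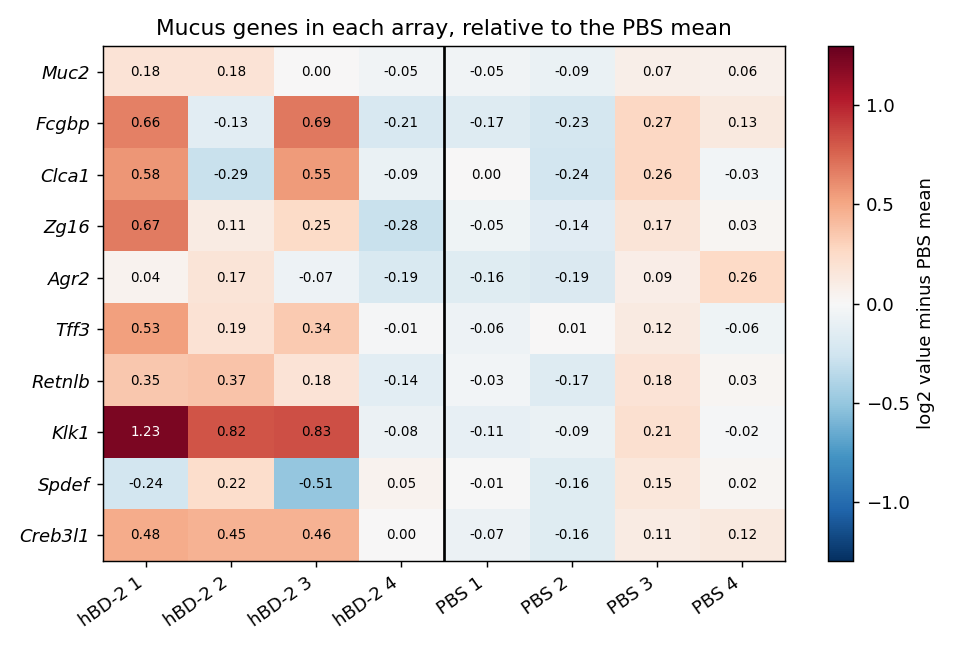
Log2 value minus the PBS mean of the same gene (colour and printed number) for the 10 genes (rows) in each array (columns, hBD-2 left of the line and PBS right). Klk1, Tff3 and Creb3l1 are above 0 in hBD-2 1, 2 and 3, Fcgbp and Clca1 stand out in hBD-2 1 and hBD-2 3, and no gene in hBD-2 4 lies more than 0.049 above the PBS mean.

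Spdef and Creb3l1, the transcription factors of the group, had differences of opposite sign. Creb3l1, a transcription factor held in the endoplasmic reticulum membrane until it is cleaved, is expressed in secretory cells such as goblet cells. It was at 10.47, 10.44, 10.44 and 9.99 in hBD-2 1 to 4, against 9.91, 9.83, 10.10 and 10.11 in PBS 1 to 4. hBD-2 1, 2 and 3 lay close together and above all PBS arrays, and hBD-2 4 lay within the PBS range. The difference of 0.35 (SE 0.12, unadjusted p = 0.0161, adjusted p = 0.299 by limma, exact permutation p = 0.0857) was 0.46 without hBD-2 4 and 0.22 without the pair. Of its relatives, Creb3, Creb3l2, Creb3l3 and Creb3l4 lay between -0.098 and 0.021.

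Spdef, the ETS-family factor that drives goblet cell maturation, was at 8.48, 8.94, 8.21 and 8.77 in hBD-2 1 to 4, against 8.71, 8.56, 8.87 and 8.74 in PBS 1 to 4. hBD-2 1 and hBD-2 3 held the lowest values of the 8 arrays and hBD-2 2 the highest. The difference was -0.12 (SE 0.15, adjusted p = 0.783 by limma), and it changed sign to 0.012 without hBD-2 3 and to 0.14 without the pair. In the pair of arrays that stood apart, Spdef was thus low where Fcgbp and Clca1 were high.

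**Figure D3:**
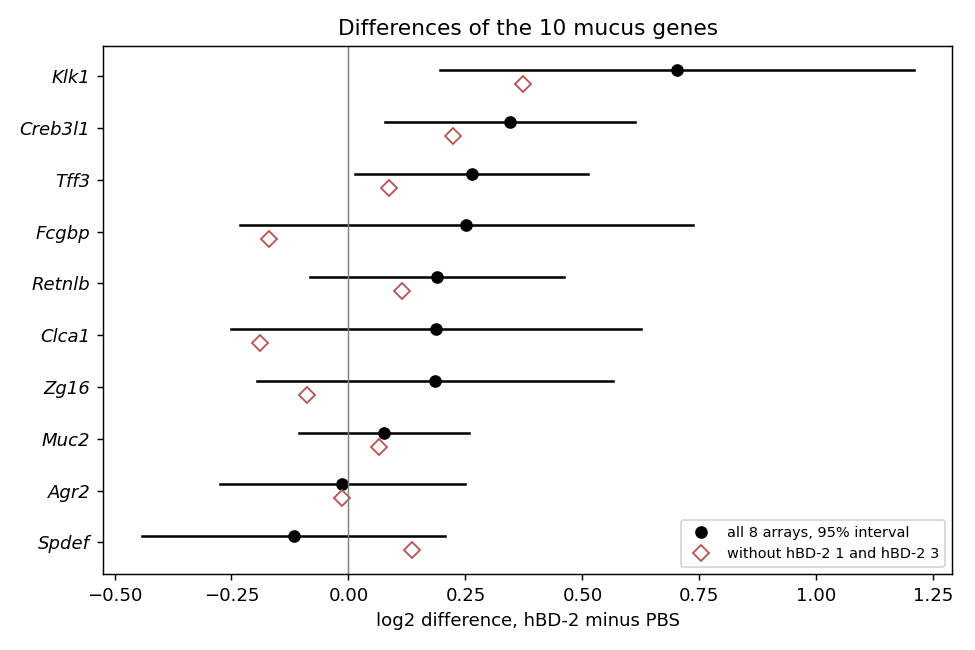
Log2 difference, hBD-2 minus PBS (horizontal axis), of the 10 genes over all 8 arrays (black points, with 95% intervals) and without the pair (open red diamonds). Klk1 has the largest difference at 0.70, and Fcgbp, Clca1, Zg16 and Spdef change sign when the pair is left out.

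Other genes known from goblet cells included some that separated the groups. Of 28 measured, 21 were higher in hBD-2, against 53.5% of all genes, the median difference was 0.13, and none passed. At an unadjusted p under 0.05, 4 were higher and 1 lower, against 5.85% and 5.98% of all genes. The groups separated with hBD-2 higher in 2 and lower in 2, against 2.80% and 3.60% of all genes. Sytl4, a synaptotagmin-like protein of secretory granules, had the lowest p, with 6.33, 6.13, 6.13 and 6.23 in hBD-2 1 to 4, against 5.59, 5.66, 5.68 and 5.78 in PBS 1 to 4. All 4 hBD-2 mice thus lay above all PBS mice, with a difference of 0.53 (SE 0.078, adjusted p = 0.0607 by limma) that was 0.50 without the pair. Bcas1 was likewise separated, at 0.36 (SE 0.11, adjusted p = 0.260 by limma). Tgm2, a transglutaminase also expressed by stromal and immune cells, was lower in all 4, at -0.45 (SE 0.14, adjusted p = 0.256 by limma), and -0.20 without the pair. Galnt3, a mucin-type glycosyltransferase, was also lower in all 4, by a small step of -0.058 (SE 0.062), and is named after its values were seen.

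Tgm3, a transglutaminase that cross-links MUC2, was high in the pair of arrays alone. It stood at 10.73, 5.95, 10.56 and 6.49 in hBD-2 1 to 4, against 6.04, 5.90, 6.48 and 6.40 in PBS 1 to 4. The 2.23 difference became 0.015 without the pair. Mptx1, a mucosal pentraxin, had a similar split, with 9.71, 5.91, 10.03 and 6.14 in hBD-2, against 6.01, 6.31, 7.84 and 6.23 in PBS, and its difference of 1.35 turned to -0.57. Both had their highest values in the pair, as Hoxb13 did.

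The genes most like Klk1 were sought as those with the smallest root mean square difference over the 8 arrays after each gene was centred on its own mean, among 4952 genes that varied by an SD of at least 0.2. The closest was Spink4, a goblet cell peptide of the Kazal protease inhibitor family, at 0.13 log2 units. Hgfac, the activator of hepatocyte growth factor, followed at 0.15, the ubiquitin ligase gene Rnf186 at 0.17, and Smim24 and the ceramide synthase gene Cers4 at 0.18. Spink4 was at 11.83, 11.37, 11.55 and 10.39 in hBD-2 1 to 4, against 10.73, 10.59, 10.82 and 10.87 in PBS 1 to 4. Reg4, a marker of deep crypt secretory cells of the colon, was likewise lowest in hBD-2 4 among the hBD-2 mice, with 11.88, 11.64, 11.87 and 10.44 in hBD-2, against 10.76, 10.85, 10.50 and 10.48 in PBS. Its difference was 0.81 (SE 0.28, adjusted p = 0.298 by limma), and 0.39 without the pair. Of the 4 measured deep crypt secretory genes, 2 were higher and 2 lower in hBD-2. Cd44 was at -0.31 (SE 0.15), and -0.027 without the pair.

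The same search for Muc2 named the member Retnlb first, at 0.11, then C1galt1c1, the chaperone of the enzyme that builds core 1 mucin sugars, also at 0.11. Fstl1, Adh6a and Speer4a came next, between 0.11 and 0.12. Since Muc2 itself varied by an SD of 0.10, less than any gene eligible for the search, these distances are about as large as its own spread.

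**Figure D4:**
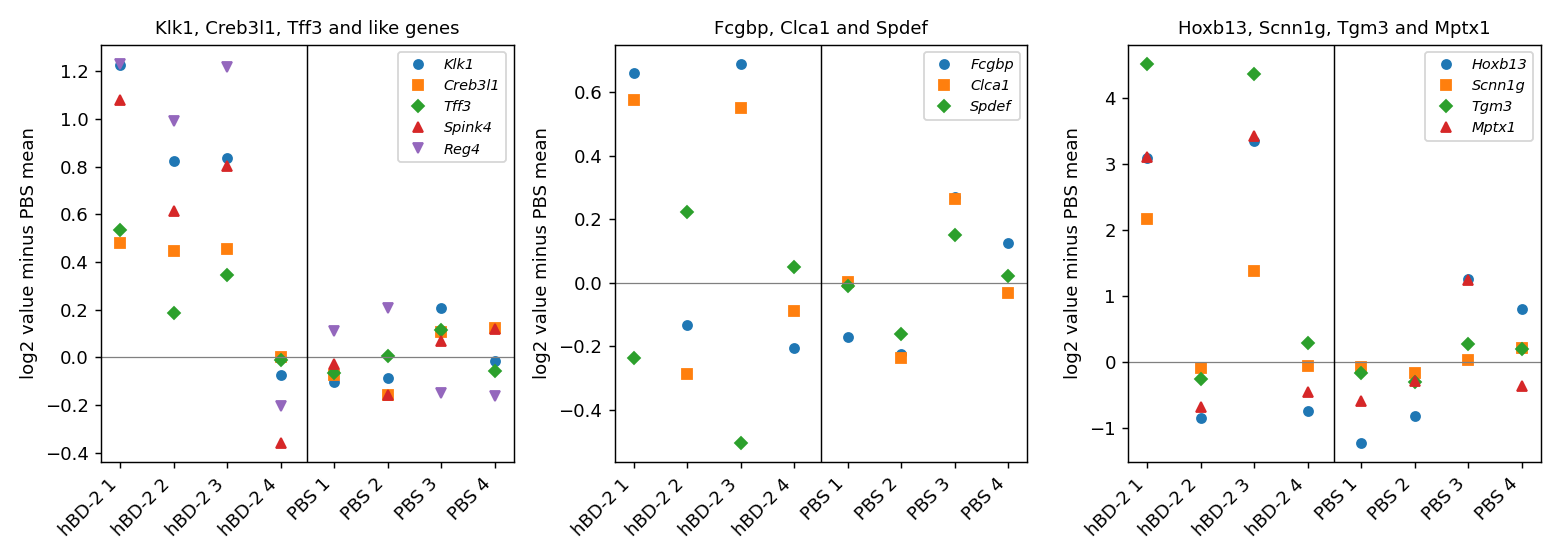
Log2 value minus the PBS mean of the same gene (vertical axes, scales differ between panels) in each array, for Klk1, Creb3l1, Tff3, Spink4 and Reg4 (left), Fcgbp, Clca1 and Spdef (middle) and the position genes Hoxb13 and Scnn1g with Tgm3 and Mptx1 (right). The left panel is high in hBD-2 1, 2 and 3, the right panel in hBD-2 1 and hBD-2 3. The genes were grouped after their values were seen.

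No gene of the machinery behind mucus secretion was called, where 0.0410% of all genes were. Of 18 measured transcription factors of goblet and gut epithelial cells, 12 were higher in hBD-2, against 53.5% of all genes. Their median difference was 0.070, and none passed. Cdx1 and Foxq1 had unadjusted p-values under 0.05, at 0.21 and 0.23, where 5.85% of all genes did so with hBD-2 higher. Atoh1, the factor that commits cells to the secretory lineages, was named after its values were seen and was at 8.96, 9.31, 8.79 and 8.91 in hBD-2 1 to 4, against 8.93, 8.74, 9.02 and 8.82 in PBS 1 to 4. Of 24 secretory endoplasmic reticulum genes 12 were higher, with a median of -0.010. None had an unadjusted p under 0.05, against 11.8% of all genes. Ern2, the stress sensor of mucus-secreting cells, stood at 0.16 (SE 0.11). Of 18 genes of granule exocytosis 15 were higher, against 53.5% of all genes, with a median of 0.081 and none past the threshold. Syt7, a calcium sensor of exocytosis, was at 0.30 (SE 0.10, adjusted p = 0.299 by limma).

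Of 7 other mucins measured, 6 had the higher mean in hBD-2, against 53.5% of all genes, and the median difference was 0.070. None had an unadjusted p under 0.05, against 11.8% of all genes. The lowest p belonged to the membrane mucin Muc20, at 7.94, 7.30, 7.57 and 7.09 in hBD-2 1 to 4, against 6.95, 6.81, 7.51 and 7.29 in PBS 1 to 4. Its difference of 0.33 (SE 0.20, adjusted p = 0.534 by limma) was 0.053 without the pair. Muc1, another membrane mucin, was at 9.64, 7.70, 9.38 and 7.23 in hBD-2 1 to 4, against 7.72, 7.64, 8.26 and 8.67 in PBS 1 to 4, so that its difference of 0.41 turned to -0.61 without the pair.

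No gene for signals that act on goblet cells passed either, where 0.0410% of all genes did. Of 13 genes of the Notch pathway, whose signalling holds back secretory differentiation, 5 were higher, with a median of -0.035. They include receptors, ligands, modulators and targets, so the median has no single direction for that signalling. The ligands Jag1 and Jag2 were at -0.28 (SE 0.098) and -0.29 (SE 0.10), each with an unadjusted p under 0.05, as in 5.98% of all genes with hBD-2 lower. Of 18 genes for cytokines, their receptors and Stat6, 7 were higher, with a median of -0.036. Il13, the cytokine that induces Retnlb and Clca1, was likewise named after its values were seen. Its mean was 0.18 higher in hBD-2 (SE 0.11, limma adjusted p = 0.546). Among receptors of the list, Il4ra, Il13ra1 and Il13ra2 had lower means in hBD-2, with differences of -0.24, -0.11 and -0.041. Stat6 was also lower, at -0.11, while the receptor gene Il22ra1 was higher, at 0.21. Whether these levels bear on Il13 signalling was not tested. Largest in the list were the differences of Il6 and Il33, -0.73 and -0.49, and Tnf showed -0.35 (SE 0.12, limma adjusted p = 0.285).

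**Figure D5:**
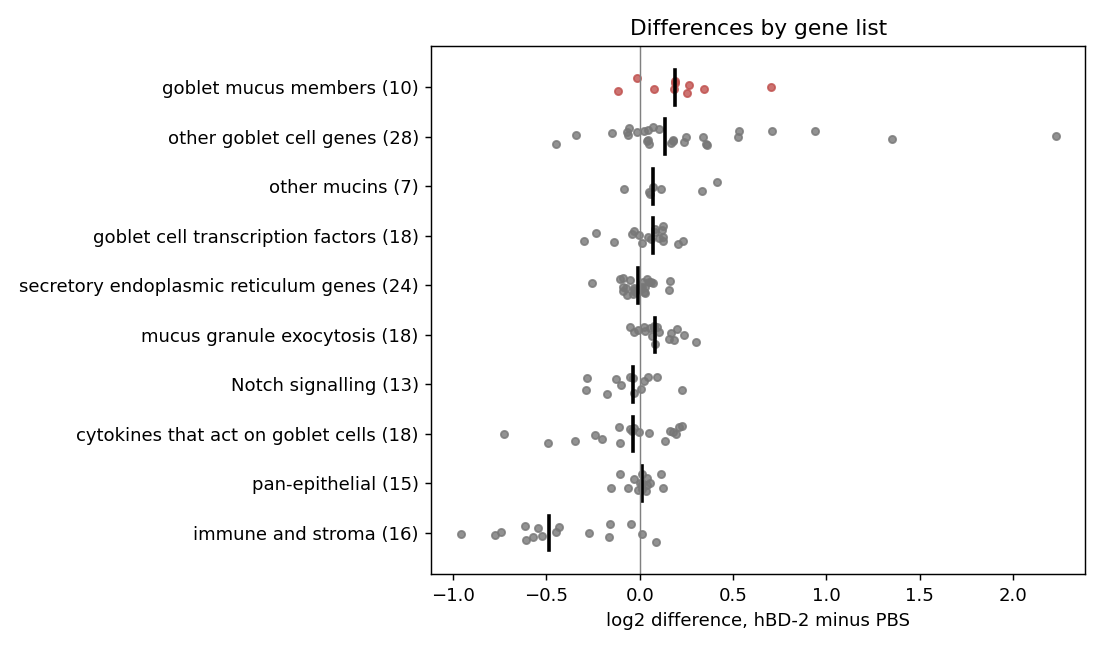
Log2 differences, hBD-2 minus PBS (horizontal axis), of the measured genes of each list (points, jittered vertically, number of genes in brackets) with the median of the list (black bar). The 10 mucus genes (red) have a median of 0.19, the pan-epithelial genes of 0.012 and the immune and stromal markers of -0.49.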

How the data were processed

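RNA from whole colon was hybridised to Affymetrix arrays, 1 per mouse, after biotin labelling with the WT Pico kit, per the labels' protocols. The deposited log2 values cover 22203 probe sets. They were made with oligo and RMA, per the submitters' processing notes, with versions not given in the sources used here. RMA corrects background, makes the arrays' distributions alike and gives 1 log2 value per probe set, so an overall shift between mice would not show. The array medians lay between 6.77 and 6.82, and RMA output does not show how far a probe set stood above background. Precision is limited by having 4 arrays a group.

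The platform annotation named 19572 probe sets, and the highest probe set by mean was kept for each of 55 genes with several, leaving 19505. hBD-2 minus PBS was tested two-sided with limma 3.58.1 (lmFit, eBayes) in R 4.3.3, over all genes, with Benjamini-Hochberg adjustment and a threshold of 0.05. The labels do not say whether mice shared cages or litters. The fit was tested on simulated data with independent noise in each array. It recovered 54.3% of changes of 0.5 log2 units and 93.7% of changes of 1. Such noise does not hold the likeness of hBD-2 1 and hBD-2 3, so recovery in the real arrays may differ. Figures used matplotlib 3.10.9.

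The members and the gene lists, 18 with the members' own, were chosen with earlier results of these data known. All members were named. Eligible besides were, in each other list, the 3 genes with the lowest p and the 2 with the largest difference. Relatives of the members, position genes and the 5 most similar properly named genes for Muc2 and for the most variable member were also eligible. Not every eligible gene is named in the text, so those named are a further selection. Atoh1, Il13 and Galnt3 fall outside this rule. The alternatives were an intensity trend with robust prior, leaving out the lowest 25% of genes, 3 rescalings, averaged probe sets, array weights, a block for replicate number, omission of single arrays and of the pair, all probe sets, and an exact permutation test.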

Additional observations from a re-analysis of the deposited data

Results flagged for a closer look

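The members and the genes eligible by p or difference in the other lists came to 73 genes, or 146 groups of 4 arrays. Gaps between arrays were taken as a share of the group's range. In 8 groups an array's gap to its nearest neighbour exceeded Dixon's 95% critical value for 4 samples, where chance gives about 1 in 20. The only mucus gene among them was Creb3l1, at 9.99 in hBD-2 4, against 10.44 to 10.47 in the other hBD-2 arrays. Reg4 was at 10.44 and Il22ra1 at 8.41 in the same array, below 11.64 and 8.73 in the nearest of the others. Bcas1 stood high in hBD-2 1 at 9.28, and Cdx1 in hBD-2 3 at 9.96. Among the PBS arrays, Mptx1 stood high at 7.84 and Retnlg low at 5.52 in PBS 3, and Ern2 stood low at 8.76 in PBS 2.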

How the results depend on the processing

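No mucus gene passed an adjusted p of 0.05 in limma under any of 18 alternatives, while 0 to 5 of the 10 had an unadjusted p under 0.05, the 0 without hBD-2 1 and hBD-2 3 together. Their median difference stayed between 0.076, without that pair, and 0.32, without hBD-2 4. The number of members with separated groups ran from 0 to 3 with single arrays left out, the 3 without hBD-2 4, where 5.68% of all genes separated with hBD-2 higher and 5.38% with hBD-2 lower. Muc2, Tff3, Retnlb, Klk1 and Creb3l1 were higher in hBD-2 under every alternative run. Without hBD-2 1 and hBD-2 3 the direction turned for Fcgbp (-0.17), Clca1 (-0.19), Zg16 (-0.089) and Spdef (0.14). Agr2 turned with arrays centred on their medians (0.0068) and with array weights (0.036), and ran from -0.075 to 0.073 with single arrays left out, as Spdef ran from -0.23 to 0.012. Over all genes the calls numbered 8, and 91 with an intensity trend and robust prior, 68 with array weights, 16 without the lowest 25% of genes, 5 with all probe sets, 4 with quantile normalization repeated, 2 relative to the pan-epithelial mean, 0 without the pair and 0 to 11 with single arrays left out, the 0 without hBD-2 1, hBD-2 3 or any 1 PBS array (limma, 1678 to 2771 genes at an unadjusted p under 0.05 in those last). With the replicate number as a block there were 0, and 2566 at an unadjusted p under 0.05. Same-numbered arrays deviated from their group means with correlations of -0.15 to 0.24, and differently numbered arrays with correlations of -0.25 to 0.20. Such overlapping values cannot show whether the numbers paired the mice. The block changed no member's call. The causes of these shifts were not tested.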

Other observations

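No gene of the other epithelial lists passed in limma, where 0.0410% of all genes did. At an unadjusted p under 0.05 were 3 of 14 colonocyte genes, 1 of 8 stem and transit amplifying genes, 1 of 4 deep crypt secretory genes, 0 of 7 enteroendocrine genes, 1 of 6 tuft cell genes and 1 of 5 Paneth cell genes, against 11.8% of all genes. Of 14 measured colonocyte genes 10 were higher in hBD-2, against 53.5% of all genes, with a median of 0.079. Slc26a3, the chloride and bicarbonate exchanger of the colon surface, was at 0.33 (SE 0.11) with no overlap between groups, as in 2.80% of all genes. Car4, a carbonic anhydrase, was at 0.39 (SE 0.12). Without the pair of arrays, hBD-2 1 and hBD-2 3, Slc26a3 and Car4 were at 0.18 and 0.24. The largest difference of the list was that of Fabp2, a fatty acid binding protein, at -0.86 (SE 0.68), and 0.52 without the pair. Slc20a1, a phosphate transporter, was at 0.46 (SE 0.26), and -0.042 without the pair. Among 8 stem and transit amplifying genes, 7 were higher with a median of 0.073, and Smoc2, a stem cell marker, stood 0.38 higher (SE 0.10, limma adjusted p = 0.218). The 4 deep crypt secretory genes, of which Reg4 and Cd44 are described above, had a median of 0.021. Of 7 enteroendocrine genes 6 were higher, with a median of 0.26 that was -0.17 without the pair of arrays.

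Of 6 tuft cell genes 4 were higher, with a median of 0.15. Pou2f3, the factor that specifies tuft cells, separated the groups at 0.25 (SE 0.091, limma adjusted p = 0.337), as 2.80% of all genes did with hBD-2 higher. Its signal was low, at 4.80 to 5.06 in hBD-2 and 4.47 to 4.78 in PBS. Of 5 Paneth cell genes 2 were higher, with a median of -0.044, and the lysozyme gene Lyz1 had a difference of -0.47 (SE 0.12, limma adjusted p = 0.182). The 33 measured relatives of the members had a median of 0.090, with 23 higher.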
